A study of Mus musculus with 12 samples.

Results

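The genes examined were 9 transcription factors and cofactors of hematopoietic stem cells (HSCs) outside the RUNX and ETS families: Gata2, Tal1, Lyl1, Lmo2, Ldb1, Gfi1, Gfi1b, Hlf and Mllt3. They were chosen by name and found by gene symbol, 1 gene ID each, among 40481 genes in the deposited table, and all 9 passed the filter on low values that left 14271 genes for testing. RNA was sequenced from mouse HSCs of 2 genotypes, which the labels call wild type (WT) and iE/R. The labels do not spell out iE/R; from the series title it is read here as an inducible ETV6-RUNX1, the fusion of a pair of transcription factor genes found in childhood B-cell leukemia. The cells were taken from the liver of E14.5 fetuses or the bone marrow of mice aged 8 weeks, and each of the 4 groups held 3 libraries. All cells, WT included, were cultured ex vivo under HSC expansion conditions for 3 days with doxycycline (DOX) at 1 µg/mL, taken here to be the inducer of the fusion, so no group was free of culture or drug. The labels give neither the surface markers of the sort, nor the promoter that drives the fusion, nor the sex and number of animals per library. Nothing in them says that replicates came from separate animals or cultures, so p-values measure the spread between these libraries, which may be technical.

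The 9 factors work in a few physical assemblies. GATA2, a zinc finger protein, and a dimer of TAL1 or its relative LYL1 with an E protein bind DNA side by side, and LMO2 bridges them to LDB1, which self-associates and draws enhancers to promoters. GFI1 and GFI1B are related zinc finger repressors that recruit the histone demethylase LSD1 through a SNAG domain. HLF is a leucine zipper factor of the PAR family known as a marker of HSCs, and MLLT3 (AF9) reads acylated histones and joins the super elongation and DOT1L complexes; MLLT3 is known to sustain HSC identity in culture.

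Promoter sequences were read for the members on which the results turn. Hlf and Mllt3 are shown as the members with the smallest p-values in fetal liver, Gfi1b as the only member that passed the main test as a fall with the fusion, and Lyl1 as the member with the widest spread between replicates. Each run is the 250 bases before a RefSeq transcript start (build GRCm38.p6), written 5′ to 3′ on the gene's strand, and capitals mark matches on either strand to the motifs searched, which were those of GATA factors (AGATAA, or with another first letter TGATAA), the E-box bound by TAL1 and LYL1 dimers (CAGNTG), RUNX factors (TGTGGT, or with another middle letter TGCGGT), ETS factors (CCGGAA) and GFI factors (AAATCA).
Hlf, chr11:90390918-90391167, minus strand: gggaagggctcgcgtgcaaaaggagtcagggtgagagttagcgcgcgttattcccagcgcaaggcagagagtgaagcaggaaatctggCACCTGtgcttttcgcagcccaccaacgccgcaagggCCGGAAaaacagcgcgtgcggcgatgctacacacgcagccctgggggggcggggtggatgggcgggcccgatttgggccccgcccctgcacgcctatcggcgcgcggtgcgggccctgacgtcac
Mllt3, chr4:88033408-88033657, minus strand: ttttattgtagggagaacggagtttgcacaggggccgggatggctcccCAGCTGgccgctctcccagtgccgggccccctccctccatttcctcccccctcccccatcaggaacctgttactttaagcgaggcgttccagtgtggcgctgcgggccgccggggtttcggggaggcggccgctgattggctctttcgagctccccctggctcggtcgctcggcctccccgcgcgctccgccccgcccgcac
Gfi1b, chr2:28621983-28622232, minus strand: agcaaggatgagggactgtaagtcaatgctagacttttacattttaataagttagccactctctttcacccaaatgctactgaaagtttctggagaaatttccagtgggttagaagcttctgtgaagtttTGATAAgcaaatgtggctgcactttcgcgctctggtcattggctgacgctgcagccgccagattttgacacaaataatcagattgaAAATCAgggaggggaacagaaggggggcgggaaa
Lyl1, chr8:84701207-84701456, plus strand: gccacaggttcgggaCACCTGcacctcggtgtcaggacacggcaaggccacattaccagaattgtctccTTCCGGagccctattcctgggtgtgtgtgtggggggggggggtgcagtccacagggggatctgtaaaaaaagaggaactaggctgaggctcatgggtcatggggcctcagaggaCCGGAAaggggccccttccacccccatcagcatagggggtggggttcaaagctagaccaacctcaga
RefSeq entries were found for 8 of the 9 members, with 14 starts between them. The E-box letters lay in 6 of these 14 windows, against 44.8% of 32851 windows of the same length before all starts. The RUNX letters TGTGGT lay in 0 of the 14 member windows and in 14.0% of all windows, and TGCGGT in 0 and in 5.10%. CCGGAA lay in 2 of 14 (12.0% of all windows), AGATAA in 2 (9.99%), TGATAA in 1 (7.94%) and AAATCA in 1 (12.4%). Hlf and Lyl1 thus each held E-box and ETS letters, Mllt3 an E-box alone, and Gfi1b 1 GATA and 1 GFI match. A match is a description of letters and not a binding site, and some of these letter sets can overlap one another.

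The libraries held 32.3 to 64.5 M reads, and the floor below which no level is read, 3 reads, equalled 0.047 to 0.093 CPM (reads of a gene scaled to the library total). Runx1, which shares sequence with the fusion, stood at 143 to 244 CPM in the 6 ETV6-RUNX1 libraries and at 86.7 to 135.5 CPM in the 6 WT libraries, and fusion reads could not be told from reads of the normal gene. All 10 HSC marker genes listed (among them Kit, Cd34, Procr and Slamf1) were above the floor in every group. Xist stood at 51.7 to 89.3 CPM in the fetal liver libraries and at 0.175 to 1.27 CPM in the bone marrow libraries, so sex and source cannot be told apart. Y-linked genes summed to 64.6 to 119 CPM in WT and 198 to 219.5 CPM in ETV6-RUNX1 fetal liver. In bone marrow they summed to 229 to 288 and 268 to 389 CPM. The fetal liver libraries thus held RNA of both sexes, and the genotypes did not overlap in Y-linked level there. Whether the mix of sexes differed between genotypes was not tested. Exons shared with a gene on the other strand were 177 bases for Ldb1 (Pprc1, mean 41.0 CPM), 101 for Gfi1 (A430072P03Rik, 0.264 CPM) and 4 for Lyl1 (Nfix, 48.6 CPM), and the strand setting of the counting is not given in the sources used here. In bulk RNA, fewer cells of a type and less RNA per cell cannot be told apart either.

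Levels were compared between members as CPM per kilobase of exon. In WT bone marrow Gfi1b was the most abundant member at 140 ± 8.29 CPM per kb (SD, n = 3), followed by Lmo2 at 85.1 ± 4.0. Lyl1 (27.0 ± 16.1), Hlf (24.0 ± 3.79) and Gata2 (23.9 ± 0.993) came next and their replicates overlapped. Mllt3 (7.53 ± 0.327), Ldb1 (6.50 ± 0.274) and Tal1 (6.22 ± 0.470) were lower, with Ldb1 and Tal1 overlapping, and Gfi1 was lowest at 0.910 ± 0.115. WT fetal liver gave a similar order, with Gfi1b at 199 ± 75.1 CPM per kb on top and Gfi1 at 2.62 ± 0.551 at the bottom. There Ldb1 (8.83 ± 0.412) stood above Mllt3 (6.24 ± 1.00).

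The order was different in the ETV6-RUNX1 groups. In ETV6-RUNX1 bone marrow Lmo2 led at 153 ± 24.4 CPM per kb, with no overlap with Gfi1b at 105 ± 6.88, which overlapped Lyl1 (95.7 ± 63.4). In ETV6-RUNX1 fetal liver Lyl1 (106 ± 43.6), Gfi1b (103 ± 17.6) and Lmo2 (102 ± 16.7) overlapped at the top. Hlf (57.7 ± 6.11) and then Mllt3 (28.8 ± 4.46) followed, each clear of its neighbours, and Mllt3 stood above Gata2 (15.9 ± 2.92). The lowest members there were Tal1 (9.77 ± 1.23), Ldb1 (8.76 ± 2.28) and Gfi1 (6.03 ± 2.10), with overlap between neighbours.

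**Figure D1:**
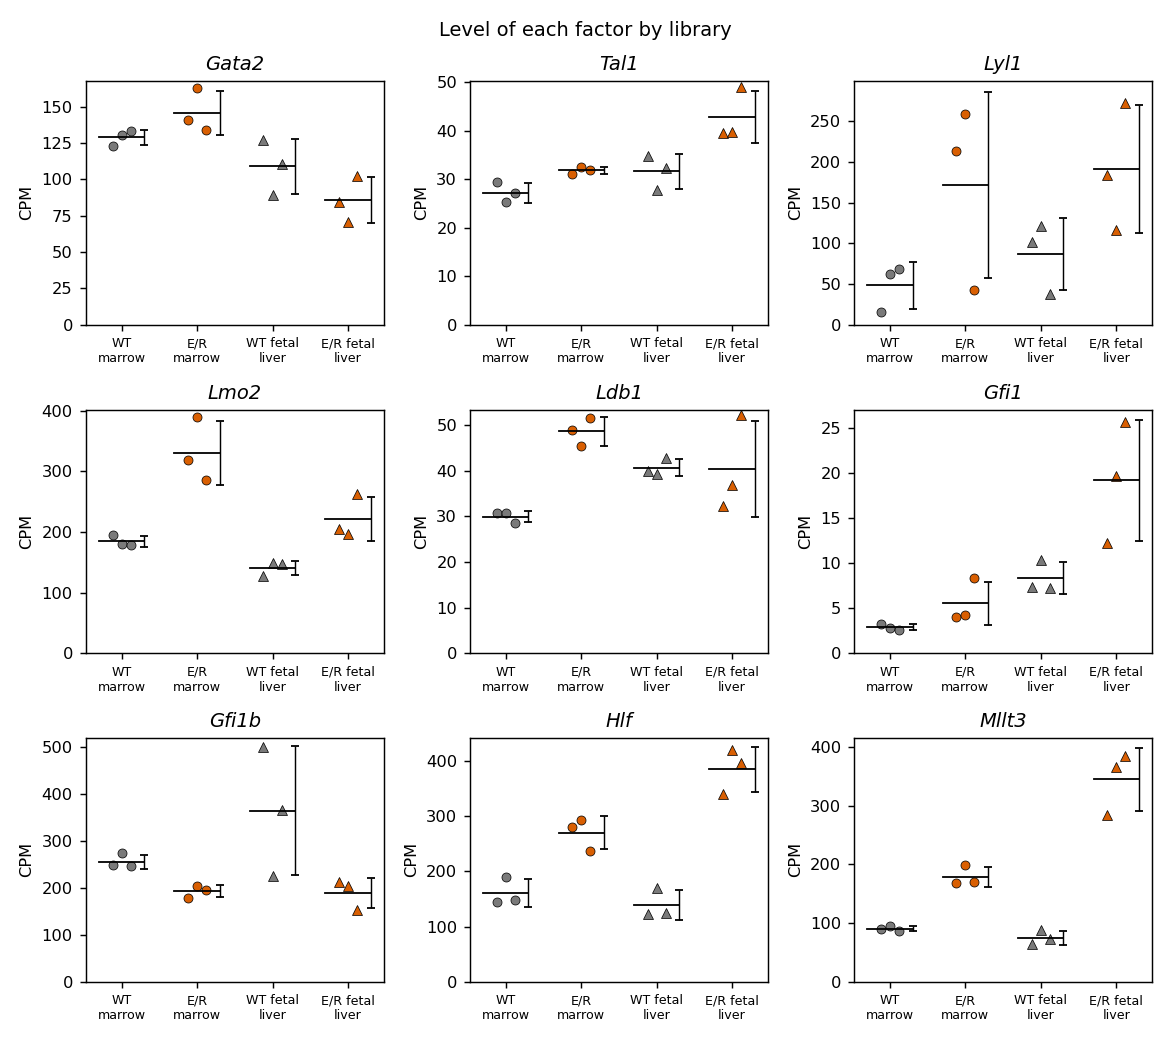
Level of each of the 9 factors (CPM, linear axis from 0) in each library, by group; circles are bone marrow, triangles fetal liver, grey WT and orange ETV6-RUNX1, with the mean as a line and the SD as a bar (n = 3). Mllt3 and Hlf were highest in ETV6-RUNX1 fetal liver, and Lyl1 spread widely within every group.

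The question of the genotype comparison was what the fusion changes in HSCs of each source. In fetal liver 6 of the 9 members passed the test (limma on log2(CPM + 1), adjusted p under 0.05 over all genes tested): Mllt3, Hlf, Gfi1, Lmo2 and Tal1 rose and Gfi1b fell. Over all genes 43.1% were called, 24.8% higher and 18.3% lower, so a call was common in this comparison. The same 6 members were those whose ETV6-RUNX1 and WT libraries did not overlap, as was true of 55.6% of all genes. The median log2 fold change was 0.64 over the members and 0.08 over all genes.

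In bone marrow 4 of the 9 members passed, Mllt3, Lmo2, Hlf and Ldb1, and all 4 rose. Over all genes 19.4% were called, 14.4% higher and 4.93% lower. Groups did not overlap for 8 of the 9 members, 7 higher and 1 lower (Gfi1b), against 34.5% of all genes. The median log2 fold change was 0.69 over the members and 0.13 over all genes. Scaling bore on these shares: 74.5% of the calls over all genes in bone marrow were higher with the deposited scaling, but 53.0% with median-of-ratios factors, 50.4% with TMM and 48.5% with quantile normalization, and the median over all genes moved from 0.13 to 0.01, 0.00 and -0.04. In fetal liver 57.6% of the calls were higher with the deposited scaling and 42.0% with quantile normalization, which moved the median from 0.08 to -0.10.

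**Figure D2:**
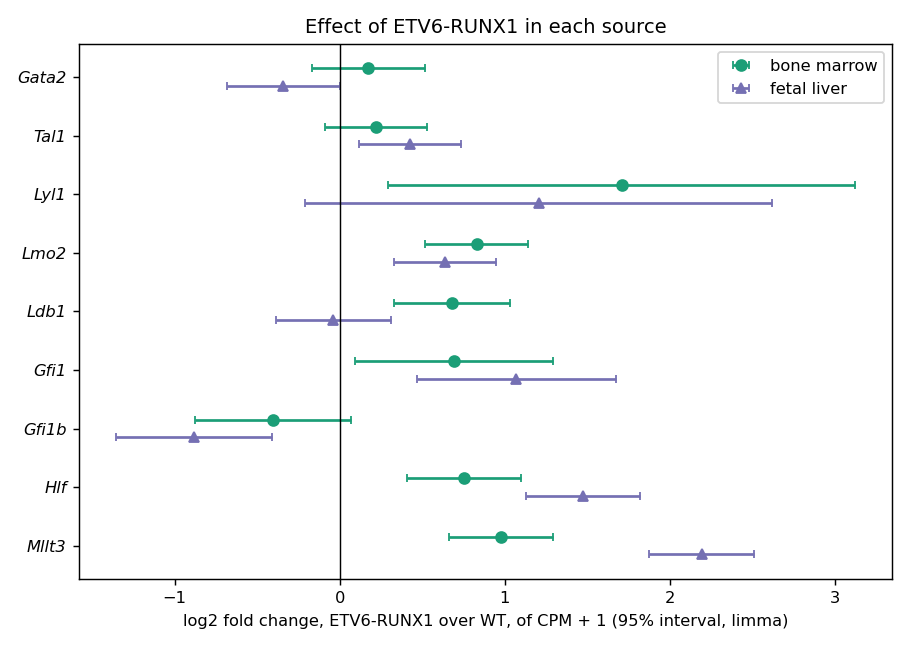
Log2 fold change of ETV6-RUNX1 over WT on the log2(CPM + 1) scale with its 95% interval from limma, for bone marrow (green circles) and fetal liver (purple triangles). The intervals of Lmo2, Gfi1, Hlf and Mllt3 lay above 0 in both sources. Those of Gfi1b and, narrowly, Gata2 (upper end -0.00049) lay below 0 in fetal liver.

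Mllt3 (chr4:87769925-88033364, minus strand) showed the largest called difference among the 9 in each source. In fetal liver it stood at 64.5, 88.0 and 72.2 CPM in WT and at 285, 367 and 385 CPM in ETV6-RUNX1. Its bone marrow levels were 90.2, 94.4 and 86.6 CPM in WT and 169, 199 and 169.6 CPM in ETV6-RUNX1. Every ETV6-RUNX1 library of either source was above every WT library, and the 3 fetal liver ETV6-RUNX1 libraries were above the 3 from bone marrow. Its mean rose 4.61-fold in fetal liver (log2 fold change 2.19 ± 0.15 SE, limma adjusted p = 6.35e-08) and 1.98-fold in bone marrow (0.98 ± 0.15, adjusted p = 0.000841). The effect was larger in fetal liver than in bone marrow by 1.22 on the log2 scale (95% interval 0.77 to 1.66, limma adjusted p for the interaction = 0.00267). Mllt3 was the only 1 of the 9 members to pass this interaction test, which called 9.19% of all genes (60.6% of them with a larger value in fetal liver, 73.8% with median-of-ratios and 72.5% with TMM scaling).

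Hlf (chr11:90336536-90390895, minus strand) had the largest called difference after Mllt3 in fetal liver, and the third in bone marrow after Mllt3 and Lmo2. Its WT libraries held 123, 171 and 125 CPM in fetal liver and 144, 189.6 and 147 CPM in bone marrow. The ETV6-RUNX1 libraries held 340.2, 419.6 and 396 CPM in fetal liver and 280.4, 293 and 236 CPM in bone marrow. As with Mllt3, no ETV6-RUNX1 library overlapped any WT library. Hlf rose 2.77-fold in fetal liver (log2 fold change 1.47 ± 0.16 SE, limma adjusted p = 7.41e-06) and 1.68-fold in bone marrow (0.75 ± 0.16, adjusted p = 0.00607). The difference between these effects was 0.72 (95% interval 0.24 to 1.20), with an adjusted p of 0.0601 in limma. It passed under 7 of 23 alternatives, among them TMM scaling (0.0348), DESeq2 (0.0141), and leaving out WT bone marrow replicate 1 (0.0324) or WT fetal liver replicate 2 (0.0341).

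Lmo2 (chr2:103957986-103981878, plus strand), the bridging LIM-only protein, was the member of the GATA and TAL1 assembly that rose in both sources. It held 127, 148 and 147.6 CPM in WT and 205, 196 and 263 CPM in ETV6-RUNX1 fetal liver. In bone marrow it held 194, 180.0 and 179 CPM in WT and 318, 389 and 286 CPM in ETV6-RUNX1. The groups did not overlap in either source. Lmo2 rose 1.57-fold in fetal liver (log2 fold change 0.64 ± 0.15 SE, limma adjusted p = 0.00291) and 1.79-fold in bone marrow (0.83 ± 0.15, adjusted p = 0.00204), and the effects differed by -0.19 (95% interval -0.63 to 0.25, adjusted p = 0.587).

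Ldb1 (chr19:46031570-46045214, minus strand), the partner that LMO2 contacts, held 30.7, 30.6 and 28.5 CPM in WT and 48.9, 45.4 and 51.6 CPM in ETV6-RUNX1 bone marrow. In fetal liver it held 40.0, 39.2 and 42.8 CPM in WT and 32.2, 36.8 and 52.2 CPM in ETV6-RUNX1. The bone marrow groups were apart, whereas the ETV6-RUNX1 fetal liver libraries spread to both sides of the WT ones. Ldb1 rose 1.62-fold in bone marrow (log2 fold change 0.68 ± 0.16 SE, limma adjusted p = 0.0113), a call that ended with quantile normalization (0.51, adjusted p = 0.0616). In fetal liver the value was -0.04 ± 0.16 (95% interval -0.39 to 0.31, adjusted p = 0.869). The difference between the effects was -0.72 ± 0.23 with an adjusted p of 0.0647 in limma. Without ETV6-RUNX1 fetal liver replicate 3, the highest of its group, it was -0.91 with an adjusted p of 0.0123. Over the 23 alternatives the difference ran from -0.91 to -0.34 and passed in only 2.

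Tal1 (chr4:115056426-115071755, plus strand), the bHLH core of the assembly, held 34.9, 27.7 and 32.4 CPM in WT and 39.6, 39.8 and 49.0 CPM in ETV6-RUNX1 fetal liver. The bone marrow libraries held 29.3, 25.2 and 27.1 CPM in WT and 31.1, 32.6 and 31.9 CPM in ETV6-RUNX1. The ETV6-RUNX1 libraries were above the WT ones in each source, by little in bone marrow. In fetal liver Tal1 rose 1.35-fold (log2 fold change 0.42 ± 0.14 SE, limma adjusted p = 0.0290), and in bone marrow the value was 0.22 ± 0.14 (adjusted p = 0.296). The fetal liver call ended in 8 of 24 alternatives: with median-of-ratios, TMM or quantile scaling, edgeR or DESeq2, and without WT fetal liver replicate 2 (adjusted p = 0.127) or replicate 3 (0.0620) or ETV6-RUNX1 fetal liver replicate 3 (0.115).

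Gata2 (chr6:88193891-88207032, plus strand), which HSCs need for their maintenance, was not called in either source. It held 127, 89.0 and 110.4 CPM in WT and 84.2, 70.9 and 102 CPM in ETV6-RUNX1 fetal liver, with overlap. In bone marrow it held 123, 130.2 and 133 CPM in WT and 141, 163 and 134 CPM in ETV6-RUNX1, narrowly apart. The log2 fold change was -0.34 ± 0.16 SE in fetal liver (limma adjusted p = 0.0979) and 0.17 ± 0.16 in bone marrow (adjusted p = 0.472). Under 7 of 24 alternatives the fetal liver value passed as a fall: median-of-ratios (-0.42, adjusted p = 0.0469), TMM and quantile scaling, edgeR, DESeq2, and leaving out WT fetal liver replicate 2 (-0.48, 0.0405) or ETV6-RUNX1 fetal liver replicate 3 (-0.47, 0.0373).

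Lyl1 (chr8:84701457-84704715, plus strand), the relative of Tal1 that can stand in for it in adult HSCs, had the widest spread. In bone marrow it held 15.2, 62.3 and 68.1 CPM in WT and 214, 259.7 and 43.2 CPM in ETV6-RUNX1. In fetal liver it held 102, 122 and 37.7 CPM in WT and 185, 117 and 273 CPM in ETV6-RUNX1. The groups overlapped in both sources, and the coefficient of variation within a group ran from 41.0% to 66.2% at 799 reads or more per library. The log2 fold change was 1.20 ± 0.66 SE in fetal liver (95% interval -0.21 to 2.62, limma adjusted p = 0.156) and 1.71 ± 0.66 in bone marrow (0.29 to 3.12, adjusted p = 0.0836). Without ETV6-RUNX1 bone marrow replicate 3 the bone marrow value was 2.52 with an adjusted p of 0.00937, and with only the 6 fetal liver libraries in the fit the fetal liver rise passed at 0.0252. Lyl1 passed under only 2 of 24 alternatives in bone marrow and 1 of 24 in fetal liver. With a library left out, its value ran from 1.03 to 2.52 in bone marrow and from 0.69 to 1.52 in fetal liver.

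The lowest Lyl1 libraries of WT bone marrow (replicate 1), WT fetal liver (replicate 3) and ETV6-RUNX1 bone marrow (replicate 3) had the highest share of reads in processed pseudogenes of their group, 2.23%, 2.36% and 2.54%. In ETV6-RUNX1 fetal liver the library with the highest share (replicate 3, 1.91%) had the highest Lyl1. With this share as a covariate the bone marrow value of Lyl1 was 2.56 (limma adjusted p = 0.0200). The fetal liver value was then 0.34, against 1.20 in the main test, and was not called. The part of the share in the spread of Lyl1 was not tested.

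The related repressors Gfi1 and Gfi1b moved in opposite directions in fetal liver. Gfi1 (chr5:107716657-107726036, minus strand) held 7.39, 10.4 and 7.30 CPM in WT and 12.3, 19.7 and 25.7 CPM in ETV6-RUNX1 fetal liver. Bone marrow held 3.29, 2.84 and 2.57 CPM in WT and 4.05, 4.27 and 8.32 CPM in ETV6-RUNX1. No groups overlapped within a source, and these low levels rested on 103 to 1096 reads per library. Gfi1 rose 2.30-fold in fetal liver (log2 fold change 1.07 ± 0.28 SE, limma adjusted p = 0.00715); the bone marrow value of 0.69 ± 0.28 (95% interval 0.09 to 1.29) had an adjusted p of 0.0973.

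Gfi1b (chr2:28609450-28621982, minus strand), known above all in erythroid and megakaryocyte cells and HSCs, held 500.1, 225 and 366 CPM in WT and 212, 203 and 152 CPM in ETV6-RUNX1 fetal liver. In bone marrow it held 248, 273 and 245 CPM in WT and 179, 204 and 195 CPM in ETV6-RUNX1. Every ETV6-RUNX1 library was below every WT library of its source, and WT fetal liver was the most variable group. Gfi1b fell to 0.520 of the WT mean in fetal liver (log2 fold change -0.88 ± 0.22 SE, limma adjusted p = 0.00535), and for bone marrow the ratio was 0.754 (-0.41 ± 0.22, 95% interval -0.88 to 0.07, adjusted p = 0.210). The difference between the 2 effects was -0.48 (95% interval -1.14 to 0.19, adjusted p = 0.352), so a difference between sources was not shown.

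Fetal liver was also compared with bone marrow within each genotype. In WT 1 of the 9 members passed, against 11.1% of all genes: Gfi1 was 2.88-fold higher in fetal liver (log2 fold change 1.25, limma adjusted p = 0.00932). The WT sources did not overlap for 3 members (29.5% of all genes), Gfi1 and Ldb1 being higher and Lmo2 lower in fetal liver. The WT values of Mllt3 (-0.28, adjusted p = 0.259) and Hlf (-0.21, adjusted p = 0.446) were below 0, with 95% intervals that reached both sides of it. Of the calls over all genes in WT, 30.3% were higher in fetal liver with the deposited scaling and 40.7% with median-of-ratios factors, 41.7% with TMM and 41.5% with quantile normalization.

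In ETV6-RUNX1 cells 6 of the 9 members passed between the sources, against 28.6% of all genes, and the groups of the same 6 did not overlap (42.2% of all genes). Mllt3 was 1.93-fold higher in fetal liver (0.94, limma adjusted p = 0.000323) and Gfi1 3.46-fold higher (1.63, adjusted p = 0.000656). Hlf (0.51, adjusted p = 0.0271) and Tal1 (0.41, adjusted p = 0.0469) were higher too, while Gata2 was lower at 0.588 of the bone marrow mean (-0.77, adjusted p = 0.00257), as was Lmo2 at 0.668 (-0.58, adjusted p = 0.00875). The calls of Mllt3, Gfi1 and Gata2 held in all 24 alternatives. Tal1 lost its call in 15 of 24, including without any library but WT bone marrow replicate 1 (adjusted p up to 0.162). Hlf lost it in 7, including without ETV6-RUNX1 bone marrow replicate 1 or 3 or fetal liver replicate 2 or 3 (up to 0.0978), and Lmo2 in 5, among them TMM scaling (-0.42, adjusted p = 0.0609). In ETV6-RUNX1 36.3% of the calls over all genes were higher in fetal liver as the values were deposited, 57.7% with median-of-ratios factors, 57.0% with TMM and 47.3% with quantile normalization, and the median over all genes moved from -0.16 to -0.01 with each of the first 2.

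Within-library ratios, on the log2 scale of CPM + 1 and given as a description, set members against close relatives. Gata1, the GATA factor of erythroid and megakaryocyte cells that takes over sites from GATA2 as cells differentiate, lay below Gata2 in bone marrow, at -1.81 ± 0.21 (SD, n = 3) in WT and -3.25 ± 0.72 in ETV6-RUNX1. In fetal liver the Gata1 to Gata2 ratio was -0.24 ± 0.08 in WT and 1.46 ± 0.47 in ETV6-RUNX1. The 3 ETV6-RUNX1 fetal liver libraries, at 1.03 to 1.96, were the only ones with more Gata1 than Gata2. The Gfi1b to Gfi1 ratio was 6.04 ± 0.16 in WT bone marrow, 5.23 ± 0.82 in WT fetal liver, and with the fusion 4.94 ± 0.48 in bone marrow and 3.28 ± 0.74 in fetal liver. Each ETV6-RUNX1 library thus had a lower Gfi1b to Gfi1 ratio than every WT library of its source.

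The ratio of Lyl1 to Tal1 was 0.56 ± 1.26 in WT and 2.04 ± 1.4 in ETV6-RUNX1 bone marrow, and 1.28 ± 0.97 in WT and 2.06 ± 0.48 in ETV6-RUNX1 fetal liver, with overlap between the genotypes in both sources. Mllt1 (ENL), the other YEATS protein of the elongation complexes, lay below Mllt3 in every library. Its ratio to Mllt3 was -2.59 ± 0.17 in WT and -3.30 ± 0.39 in ETV6-RUNX1 bone marrow, and -2.02 ± 0.25 in WT and -4.54 ± 0.26 in ETV6-RUNX1 fetal liver.

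**Figure D3:**
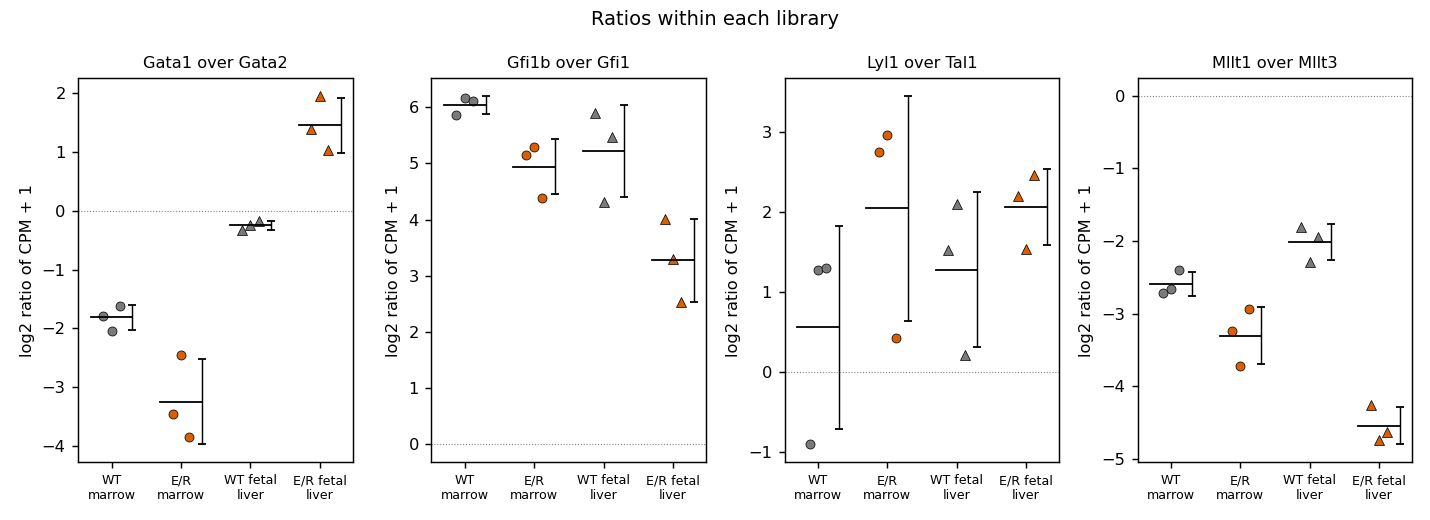
Log2 ratio of CPM + 1 between related genes within each library, by group, with mean and SD (n = 3); the dotted line marks equal levels. Gata1 exceeded Gata2 in the 3 ETV6-RUNX1 fetal liver libraries alone, and Mllt1 over Mllt3 was lowest in the same group, at -4.74 to -4.25.

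Partners of the GATA, TAL1, LMO2 and LDB1 assembly were followed in a list of 12 genes, all tested. In fetal liver 3 of the 12 rose and 0 fell, a share of rises close to the 24.8% of all genes. They were Tcf4, an E protein (0.74, limma adjusted p = 0.000179), Cbfa2t3, the corepressor ETO2 (0.67, adjusted p = 0.00934), and Gata1 (1.36, adjusted p = 0.00308). In bone marrow 3 rose, the LIM-only gene Lmo4 (0.95, adjusted p = 0.00503), Ssbp4 (0.99, adjusted p = 0.0129), a relative of the proteins that shield LDB1 from degradation, and the E protein gene Tcf3 (0.79, adjusted p = 0.0234), and Gata1 fell (-1.26, adjusted p = 0.0133). Over all genes 14.4% were called higher and 4.93% lower in bone marrow. The medians of the list were 0.36 in fetal liver and 0.21 in bone marrow. Ssbp4 lost its call without WT bone marrow replicate 2 (adjusted p = 0.0503) or ETV6-RUNX1 bone marrow replicate 2 (0.0594), and Tcf3 lost its own in 9 of 24 alternatives, 3 of them single libraries: WT bone marrow replicate 2 (0.0820) and ETV6-RUNX1 bone marrow replicates 1 (0.0505) and 3 (0.0652).

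Gata1 stood at 102, 75.1 and 98.4 CPM in WT and 223, 278 and 209.7 CPM in ETV6-RUNX1 fetal liver. Its bone marrow levels were 34.8, 31.0 and 43.0 CPM in WT and 11.9, 29.2 and 8.39 CPM in ETV6-RUNX1. The groups did not overlap in either source, and the effects had opposite signs (difference 2.62 ± 0.44 SE, limma adjusted p = 0.00232). The bone marrow fall lost its call in 4 of 24 alternatives (adjusted p up to 0.0610), 1 of them leaving out ETV6-RUNX1 bone marrow replicate 1 (0.0507), and the difference lost its own with the processed pseudogene share as a covariate (2.00, adjusted p = 0.0717).

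Of 10 tested genes that GATA, TAL1 and LDB1 complexes are known to bind in other systems (12 listed, with Slc4a1 and Alas2 below the filter), 7 rose and 0 fell in fetal liver, where 24.8% of all genes rose. Among them were Lyn, which encodes a SRC-family kinase (1.20, limma adjusted p = 5.41e-05), and the homeobox gene Hhex (0.95, adjusted p = 0.000734). In bone marrow 2 rose (14.4% over all genes), Hhex (0.64, adjusted p = 0.0235) and Cd34 (0.46, adjusted p = 0.0384). The medians were 0.68 in fetal liver and 0.22 in bone marrow. The list shares genes with the marker lists, among them Klf1, Slc4a1 and Alas2 (erythroid), Itga2b (megakaryocyte), and Kit and Cd34 (HSC). Both bone marrow calls ended when WT replicate 1 or ETV6-RUNX1 replicate 1 or 2 of bone marrow was left out (adjusted p up to 0.152), and that of Hhex also without WT bone marrow replicate 2 (0.0523), that of Cd34 also without ETV6-RUNX1 fetal liver replicate 1 (0.0530).

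Of 12 corepressors and partners of GFI1 and GFI1B, 0 rose and 3 fell in fetal liver (24.8% and 18.3% over all genes): Cbx5, which encodes a heterochromatin protein (-0.49, limma adjusted p = 0.0131), and the deacetylase genes Hdac1 (-0.42, adjusted p = 0.0133) and Hdac2 (-0.46, adjusted p = 0.0471). In bone marrow 3 rose, Hmg20b, a subunit of the LSD1 complex (1.25, adjusted p = 0.00297), the histone methyltransferase gene Ehmt2 (0.68, adjusted p = 0.00666) and Zbtb17 (0.51, adjusted p = 0.0311), and Hdac1 fell (-0.58, adjusted p = 0.00607). Over all genes 14.4% were called higher and 4.93% lower in bone marrow. Kdm1a, which encodes LSD1 itself, stood at 39.3 and 42.0 CPM in WT and ETV6-RUNX1 fetal liver and was not called. In fetal liver the calls of Cbx5 and Hdac1 ended without ETV6-RUNX1 replicate 3 (adjusted p = 0.0600 and 0.0645), that of Hdac1 also without WT replicate 2 (0.0544), and that of Hdac2 in 9 of 24 alternatives (up to 0.321), including without any 1 of WT replicates 1 to 3 or ETV6-RUNX1 replicates 1 and 2 of fetal liver, or ETV6-RUNX1 replicates 1 and 3 of bone marrow. Zbtb17 lost its call in 11 of 24 (adjusted p up to 0.112), 4 of them single bone marrow libraries: WT replicates 1 and 3 and ETV6-RUNX1 replicates 1 and 2.

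Of 12 genes that GFI1 or GFI1B repress or oppose in other systems, 7 rose in fetal liver and 0 fell, against 24.8% higher and 18.3% lower over all genes. Egr2, a zinc finger gene of the macrophage programme, was at or under 0.496 CPM in the WT libraries and at 13.5, 5.55 and 8.76 CPM in the ETV6-RUNX1 libraries of fetal liver (2.93, limma adjusted p = 9.14e-07). Its corepressor partner Nab2 (1.62, adjusted p = 0.000137) and Spi1, which encodes the myeloid factor PU.1 (1.38, adjusted p = 0.000953), rose too. In bone marrow 4 of the 12 rose and 0 fell (14.4% and 4.93% over all genes), led by Spi1 (1.37, adjusted p = 0.00386), Hoxa9 (0.81, adjusted p = 0.0100) and Nab2 (0.86, adjusted p = 0.0255). The bone marrow call of Nab2 ended in 7 of 24 alternatives (adjusted p up to 0.0990), 4 of them leaving out WT bone marrow replicate 1, 2 or 3 or ETV6-RUNX1 bone marrow replicate 2. The medians of the list were 0.88 in fetal liver and 0.44 in bone marrow.

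Genes of the complexes that MLLT3 joins, with some of the MLL (Kmt2a) complex, were followed in a list of 16, of which 15 were tested. In fetal liver 5 rose and 1 fell, and in bone marrow 3 rose and 0 fell, with medians of 0.05 and 0.32. The shares called were close to those over all genes, 43.1% in fetal liver and 19.4% in bone marrow, so the counts say nothing particular about this list. Kmt2a (MLL), the histone methyltransferase gene to which Mllt3 is fused in some leukemias, rose from 48.7 ± 5.98 to 122 ± 6.64 CPM in fetal liver (SD, n = 3; log2 fold change 1.31, limma adjusted p = 2.54e-05) and from 83.6 ± 11.3 to 153 ± 30.9 CPM in bone marrow (0.85, adjusted p = 0.00337). The elongation factor gene Ell2 (1.53, adjusted p = 3.80e-05, and 0.98, adjusted p = 0.00494) and the scaffold gene Aff1 (1.17, adjusted p = 4.86e-05, and 0.52, adjusted p = 0.0320) rose in both sources as well. Aff3, another scaffold of that family, fell in fetal liver (-0.61, adjusted p = 0.0104). Dot1l, the histone H3 methyltransferase gene, was not called in either source (-0.16 and -0.08). The bone marrow call of Aff1 ended in 11 of 24 alternatives (adjusted p up to 0.142), 4 of them leaving out replicate 1 or 2 of WT or of ETV6-RUNX1 bone marrow.

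HLF relatives and zipper factors with shared sites numbered 6, of which Dbp and Cebpa were below the filter. Of the 4 tested, Nfil3, which competes with PAR factors for their sites, rose in fetal liver (1.15, limma adjusted p = 0.000666), as did Cebpg (0.54, adjusted p = 0.0237). Cebpb rose in bone marrow (1.48, adjusted p = 0.00620). Over all genes 24.8% were called higher in fetal liver and 14.4% in bone marrow. Tef, the PAR factor gene closest to Hlf in the list, was not called. The call of Cebpg ended in 4 of 24 alternatives, including without WT fetal liver replicate 3 (adjusted p = 0.0895) or ETV6-RUNX1 fetal liver replicate 3 (0.0709).

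**Figure D4:**
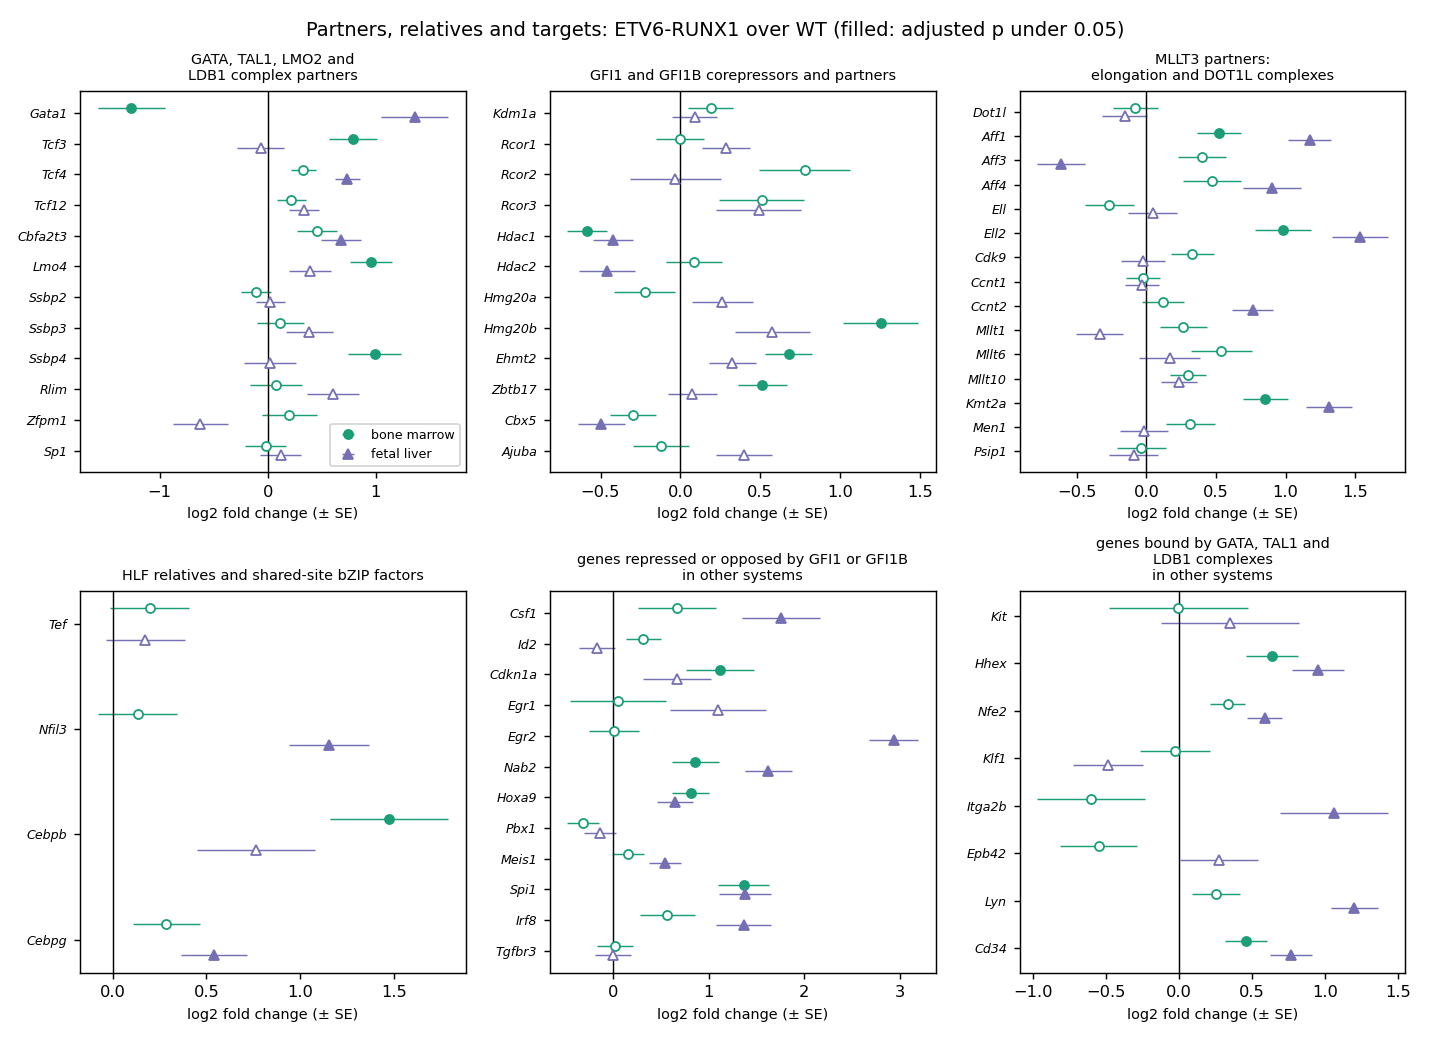
Log2 fold change of ETV6-RUNX1 over WT (± SE, limma on log2(CPM + 1)) for the tested genes reported here of the 6 partner, relative and target lists, in bone marrow (green circles) and fetal liver (purple triangles), filled where the adjusted p was under 0.05. Gata1 lay on opposite sides of 0 in the 2 sources, and Kmt2a, Ell2 and Aff1 lay above 0 in both.

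Genes whose pattern was most like that of a member were taken as the 2 smallest root-mean-square differences of centred log2 values over the 12 libraries, among 9850 other genes. For Mllt3 they were Fam174a (0.20) and Mecom (0.21), against a root-mean-square deviation of 0.88 for Mllt3 itself. For Hlf they were Tmem154 (0.14) and Pik3c2a (0.15), against 0.61. For Gfi1 they were the beta-globin genes Hbb-bt and Hbb-bs (0.32 each), against 0.90, and for Lyl1 Ier2 (0.33) and Creg1 (0.36), against 1.19. Those of Lmo2 were Dtx3 (0.13) and Zfp319 (0.15), of Ldb1 Irf2bp1 (0.09) and Epn1 (0.11), of Tal1 Fam104a and Foxk2 (0.12 each), of Gata2 Prpsap2 (0.15) and Zfp800 (0.16), and 1 of those of Gfi1b was Usp40 (0.23). The libraries share their groups, so this is a description.

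Marker lists of cells that an HSC culture can produce moved with some of these results. The summed level of 12 megakaryocyte markers was 9797 to 11160 CPM in ETV6-RUNX1 fetal liver, 4482 to 6060 in WT fetal liver, 1553 to 3406 in ETV6-RUNX1 and 2253 to 3009 in WT bone marrow. The sum of 12 erythroid markers was 1508 to 2240, 784.5 to 1060, 447 to 646 and 273 to 548 CPM in the same order, most of it Hbb-bt, while Car1 was at or below the floor in 3 of the 4 groups. In fetal liver 7 of the 12 tested megakaryocyte markers rose and 1 fell (24.8% and 18.3% over all genes). Of the 8 tested erythroid markers 6 rose and 0 fell there. Klf1, an erythroid marker that was not called, was lower in ETV6-RUNX1 fetal liver (no more than 0.315 CPM) than in WT (0.497 to 0.954 CPM). In bone marrow 0 rose in either list and 1 fell in each (14.4% and 4.93% over all genes). In both sums ETV6-RUNX1 fetal liver was highest and WT fetal liver next, the order of the group means of Gata1 and Gfi1 too, and the bone marrow groups overlapped in each sum. Gfi1b fell in fetal liver. The sum of the 10 HSC markers was 2275 to 2415 CPM in ETV6-RUNX1 and 765 to 986 in WT fetal liver, and 1596 to 1815 and 1053 to 1398 CPM in bone marrow. Of these 10 genes 7 rose and 1 fell in fetal liver (24.8% and 18.3% over all genes). In bone marrow 6 of the 10 rose and 2 fell (14.4% and 4.93% over all genes). Much of the rise in the sum was Ly6a (Sca-1), at no more than 21.4 CPM in WT and 629 to 1110 in ETV6-RUNX1 fetal liver, and at 38.4 to 179 and 282 to 629 CPM in bone marrow. Without Ly6a the sum of the other 9 was 744 to 964 CPM in WT and 1308 to 1684 in ETV6-RUNX1 fetal liver, but 874 to 1344 and 1007 to 1314 CPM in bone marrow, with overlap. Cd48, which the list also holds although HSCs are known for its absence, fell in both sources. It stood at 179 to 188 CPM in WT and 18.7 to 23.8 CPM in ETV6-RUNX1 fetal liver, and at 103 to 215 and 35.2 to 44.5 CPM in bone marrow. The part of these cell types in the results on the 9 factors was not tested.

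**Figure D5:**
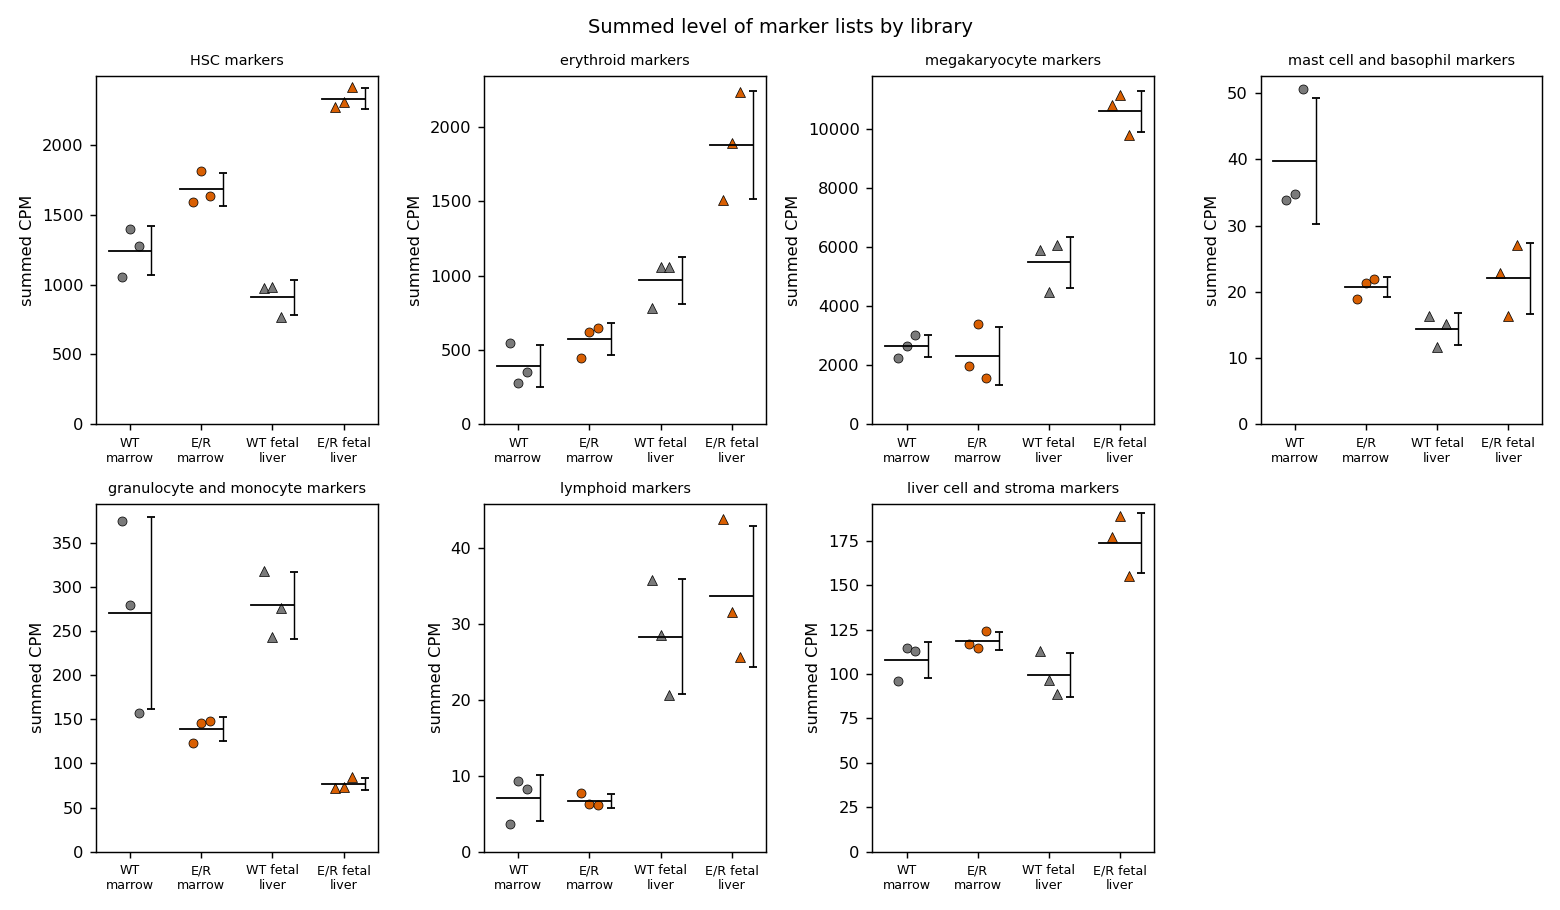
Summed CPM of each marker list by library and group (linear axes from 0), with mean and SD (n = 3). The HSC, megakaryocyte and erythroid sums were highest in ETV6-RUNX1 fetal liver, where the granulocyte and monocyte sum was lowest at 71.8 to 84.3 CPM.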

How the data were processed

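Bulk RNA was measured in 12 libraries of cultured mouse HSCs, 3 in each of 4 groups. Per the labels' protocols, RNA was extracted with a Norgen kit for single cells, libraries were made with a stranded SMARTer low-input kit from total RNA, and paired ends were read on a NovaSeq. The submitters' processing notes name bcl2fastq, STAR 2.5.1a, Subread, featureCounts 1.4.6-p5, Salmon 0.8.2, edgeR and limma and the build GRCm38; the role of each tool, the annotation release and the strand setting are not given in the sources used here. The authors deposited 1 table of CPM per gene, scaled to each library's total. Of 40757 rows, 276 repeated a gene ID with the same values, which left 40481 genes, 11203 of them without reads. In every column 100% of values came to whole reads (tolerance 0.001 read) when divided by the worth of 1 read, so reads were recovered; the listed genes held at least 99.84% of each total.

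Deposited CPM values were analysed as log2(CPM + 1) over the 14271 genes that reached 1 CPM in 3 or more libraries. The test was limma 3.58.1 (R 4.3.3) with a mean-variance trend, a coefficient per group, 8 residual degrees of freedom and Benjamini-Hochberg adjustment over all genes tested, two-sided, with a threshold of 0.05. Fold changes on this scale understate the change of low genes. Count tests on the recovered reads, edgeR 4.0.16 and DESeq2 1.42.0, were alternatives; edgeR called 6178 genes in fetal liver and 2739 in bone marrow. The script was tested on simulated data. The other alternatives were a pseudocount of 0.1, no filter, a mean of at least 5 CPM, 3 other scalings, the replicate number as a block, only the 6 libraries compared, array weights, the processed pseudogene share as a covariate, and leaving out each library.

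Positions and exon lengths came from GENCODE M21 (GRCm38) and promoters from RefSeq. The members and gene lists were chosen with earlier results of these data known. All members were named; from each partner or target list and genotype comparison up to 3 called rises and 3 called falls with the smallest adjusted p were named, from each marker list the sum and up to 3 genes of highest mean CPM, and other genes singled out in the text were chosen after their values were seen. Floors speak of counting error alone: without molecular identifiers, PCR copies of a molecule are counted too. A few genes of the lists and likeness ranks are not reported here by name, and counts, medians and sums of the lists include them.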

Additional observations from a re-analysis of the deposited data

Results flagged for a closer look

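The effect of ETV6-RUNX1 differed between fetal liver and bone marrow, by limma's interaction test on log2(CPM + 1), for 1 of the 9 factors. The test also called 1 of 12 partners of the GATA and TAL1 assembly and 2 of 10 genes bound by its complexes. Of genes that GFI1 or GFI1B repress or oppose it called 1 of 12, and of their partners 0 of 12. Calls numbered 1 of 15 for MLLT3 partners and 1 of 4 for HLF relatives, and 5 of the list genes are given here. Over all genes 9.19% were called, so these small counts say nothing particular about the members or lists. Mllt3 rose more in fetal liver, by 1.22 on the log2 scale (adjusted p = 0.00267), a call kept in 23 of 23 alternatives. Gata1 rose in fetal liver and fell in bone marrow, a difference of 2.62 (adjusted p = 0.00232), past the threshold in 22 of 23. Aff3 differed by -1.01 (adjusted p = 0.0191), falling in fetal liver from 6.03 to 3.56 CPM and standing at 18.6 and 24.8 CPM in WT and ETV6-RUNX1 bone marrow; the call was lost without ETV6-RUNX1 fetal liver replicate 1 (adjusted p = 0.0501).

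Egr2 differed by 2.92 (adjusted p = 0.000253) and was near the floor in every bone marrow library; edgeR gave an adjusted p of 0.0563 and DESeq2 0.0504. Nfil3 differed by 1.02 (adjusted p = 0.0488) and lost the call in 15 of 22 alternatives, among them leaving out any 1 library but ETV6-RUNX1 bone marrow replicate 1 (adjusted p up to 0.106). Lyn differed by 0.95 (adjusted p = 0.0204), and 7 of 23 alternatives ended the call, 5 of them leaving out WT bone marrow replicate 2 or 3, WT fetal liver replicate 2 or 3, or ETV6-RUNX1 fetal liver replicate 1 (adjusted p up to 0.0597).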

How the results depend on the processing

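Over the 9 members and 5 comparisons, 13 of 18 calls and 12 of 27 results without a call kept their side and direction in every alternative run. Of 1071 values, 992 did so, 36 lost a call, 28 gained one and 15 changed sign; causes were not tested. Gfi1 rested on the fewest reads (103 to 1096 per library) and its coefficient of variation within a group was 12.7% to 43.4%.

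Members called for the interaction numbered 2 with median-of-ratios and TMM scaling, edgeR, DESeq2 and array weights (1 to 2 when a library was left out). With these 5 settings the share called over all genes ran from 7.74% (edgeR) to 25.5% (array weights). Members called between WT sources numbered 2 with DESeq2, 4 with array weights and 2 with the pseudogene share as a covariate (1 to 2 when a library was left out). The shares called over all genes in these runs were 14.9%, 30.8% and 13.6%. Between ETV6-RUNX1 sources the members called numbered 3 with that covariate (4 to 6 when a library was left out), where 22.4% of all genes were called. Over all genes, calls in bone marrow fell from 2763 to 1601 with only the 6 libraries and ranged from 1520 (without ETV6-RUNX1 bone marrow replicate 2) to 2924 when a library was left out. The 1311 interaction calls became 767 without a filter, 3637 with array weights and 543 with the covariate, and leaving out a library gave 731 (WT bone marrow replicate 2) to 2332 (WT bone marrow replicate 1). The 1591 calls between WT sources became 4401 with array weights and ranged from 868 to 2781, without the same 2 libraries.

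Signs changed as follows. For Lyl1 the interaction was 0.17 without WT bone marrow replicate 1 (-1.31 to 0.17 over libraries left out), and the ETV6-RUNX1 source difference -0.99 with the covariate and -0.38 without ETV6-RUNX1 bone marrow replicate 3 (-0.38 to 0.90). With the covariate the Lmo2 interaction was 0.037, and Ldb1 was 0.15 for the fusion in fetal liver and 0.020 between ETV6-RUNX1 sources. Ldb1 in fetal liver was 0.11 and 0.01 without ETV6-RUNX1 fetal liver replicates 1 and 2 (-0.23 to 0.11). The Gfi1b difference between ETV6-RUNX1 sources, -0.04, was 0.13 with median-of-ratios, 0.12 with TMM, 0.13 with edgeR, 0.14 with DESeq2, 0.072 with array weights, 0.0038 when ETV6-RUNX1 bone marrow replicate 2 was left out and 0.11 when fetal liver replicate 3 was (-0.13 to 0.11).

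Replicate numbers were not shown to pair the samples: of 18 pairs with the same number, 7 had a correlation of deviations above 0.1 (range -0.44 to 0.39). A pair with different numbers, WT bone marrow replicate 1 and WT fetal liver replicate 3, reached 0.66. Deviations of the replicates in a group depend on one another, so these values cannot settle whether the numbers pair samples. With the replicate block, members called for the interaction numbered 2 instead of 1 (Hlf, 0.72, limma adjusted p = 0.0375). The share of all genes called for the interaction was then 7.24%, against 9.19% in the main test. For the fusion in fetal liver and bone marrow the block gave 5838 and 2334 calls over all genes.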

Other observations

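Other marker lists were read as values. The sum of 12 granulocyte and monocyte markers was 71.8 to 84.3 CPM in ETV6-RUNX1 and 243 to 318 CPM in WT fetal liver, and 123 to 148 and 158 to 374 CPM in bone marrow. The genotypes did not overlap in either source, but the sum was mostly Prtn3, a granule protease gene (24.8 to 34.7 CPM in ETV6-RUNX1 and 174 to 199 CPM in WT fetal liver). Without Prtn3 the genotypes overlapped in both sources. Other members went the other way: Itgam rose in both sources, with 3.30 to 5.17 CPM in WT and 16.9 to 20.0 CPM in ETV6-RUNX1 fetal liver, and 1.62 to 5.71 and 17.5 to 30.0 CPM in bone marrow. Csf1r rose in fetal liver, with 0.385 to 1.41 CPM in WT and 7.13 to 13.6 CPM in ETV6-RUNX1. Of the 5 tested, 2 rose and 2 fell in fetal liver (24.8% and 18.3% over all genes). In bone marrow 1 rose and 2 fell (14.4% and 4.93% over all genes). The sum of 11 mast cell and basophil markers was 33.8 to 50.7 CPM in WT bone marrow and 11.6 to 27.0 CPM in the other groups, a gap that rested on Gzmb (13.7 to 18.9 CPM in WT bone marrow and 9.57 to 25.7 CPM elsewhere without it), with Prss34 and Tpsb2 at or below the floor in every group. The sum of 12 lymphoid markers was 20.6 to 43.8 CPM in the fetal liver and 3.62 to 9.25 CPM in the bone marrow libraries. Cd3e was at or below the floor in all 4 groups. Without the gene of highest mean level the sum was 5.36 to 5.57 CPM in WT and 20.9 to 38.95 CPM in ETV6-RUNX1 fetal liver. In bone marrow it was then 1.03 to 1.69 CPM in WT and 4.05 to 5.04 CPM in ETV6-RUNX1. Of the 3 lymphoid markers tested, 2 rose and 1 fell in fetal liver (24.8% and 18.3% over all genes). In bone marrow 1 of them rose and 0 fell (14.4% and 4.93% over all genes). The sum of 12 liver cell and stroma markers was 155 to 189 CPM in ETV6-RUNX1 fetal liver and 88.6 to 124.5 CPM elsewhere, with Ttr at or below the floor throughout. It was mainly Pecam1, which hematopoietic cells express too (122 to 155 CPM in ETV6-RUNX1 fetal liver), and without Pecam1 it was 32.4 to 33.8 CPM there and 29.2 to 47.2 CPM elsewhere. Of the 5 tested, 2 rose and 2 fell in fetal liver (24.8% and 18.3% over all genes). Among them was Pdgfrb, which fell and stood at 3.33 to 9.02 CPM in WT and 0.018 to 0.480 CPM in ETV6-RUNX1.

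Mecom, whose pattern was among the nearest to that of Mllt3, encodes a zinc finger factor known to maintain HSCs. It was picked for this likeness in the same libraries, so its values below are a description and no separate test. It stood at 58.2, 86.9 and 51.1 CPM in WT and 259, 320.4 and 266 CPM in ETV6-RUNX1 fetal liver, and at 63.3, 102.5 and 86.4 CPM in WT and 166, 181 and 136 CPM in ETV6-RUNX1 bone marrow. Its log2 fold change was 2.12 ± 0.21 SE in fetal liver (limma adjusted p = 2.63e-06) and 0.95 ± 0.21 in bone marrow (adjusted p = 0.00700).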
